A study of Mus musculus with 4 samples.

Results

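Duox2-high enterocytes are absorptive cells of the small intestine with the most transcripts of the hydrogen peroxide-producing oxidase Duox2 and its maturation factor Duoxa2. They were described here in mice irradiated with the upper body shielded, with and without the interferon-λ receptor in the intestinal epithelium. Barcodes with 1000 or more unique molecular identifiers (UMIs, 1 per captured transcript) and 500 or more genes were kept, provided that no more than 25% of their UMIs were mitochondrial. A kept barcode was called an enterocyte when Apoa1, Apoa4, Fabp1, Fabp2 and Rbp2 together made at least 2% of its UMIs, the goblet genes Muc2, Tff3, Fcgbp, Zg16 and Clca1 made less than 2%, and Fabp6 stood under 3 per 10000 UMIs. The Duox2-high cells were then selected on their summed Duox2 and Duoxa2 UMIs per 10000: with both libraries ranked together, the 15% of enterocytes with the most were taken. This gave 989 cells (548 from wild-type mice and 441 from receptor-deficient mice) of 6588 enterocytes, of 9591 barcodes past the filters and of 17823 deposited. The other 5599 enterocytes were the comparison cells.

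The samples were WT mice and VilCreIfnlr1fl/fl mice (written KO), 3 of each, all given 11 Gy of gamma rays from a cesium source under sedation while lead covered the head, thorax and upper extremities; no unirradiated mice were analysed here. In the KO mice, Cre under the Villin promoter removes floxed Ifnlr1 from epithelial cells, so other cells of these mice keep the receptor. The time after irradiation is 96 h in the series design and 3 days in the extraction protocol. The sort gate kept viable EPCAM+ cells that lacked the leukocyte antigen CD45. Every mouse received a separate hashtag before the 3 mice of its genotype were joined in 1 pool and 1 library, and effects of the pool and of the genotype cannot be told apart. The labels name 2 experiments, of which 1 was analysed here, and they do not give the age or sex of the mice. Of the 989 cells, 617 were assigned to 1 mouse by hashtag: WT mice 1 to 3 gave 71, 117 and 129 of them, and the KO mice gave 118, 90 and 92 in the same order. A further 323 carried no hashtag and 49 carried more than 1, and both kinds were left out of comparisons between mice.

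DUOX2 is a membrane oxidase of the apical surface of gut epithelium that releases hydrogen peroxide into the lumen, and it needs the partner DUOXA2 to leave the endoplasmic reticulum. Gut epithelial cells raise both genes in response to microbes and to inflammatory cytokines, together with the inducible nitric oxide synthase Nos2 and the acute phase protein Saa1. Interferon-λ acts on epithelial cells through a receptor whose specific chain is encoded by Ifnlr1, and it switches on interferon-stimulated genes, many of which encode antiviral proteins.

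In the mouse genome (GRCm38, GENCODE M21) Duox2 (ENSMUSG00000068452) lies on the minus strand of chromosome 2 from 122279247 to 122298449, and Duoxa2 (ENSMUSG00000027225) on the plus strand from 122298900 to 122302885. The pair is arranged head to head, with 450 bases between the annotated gene spans, or 159 in the longer RefSeq models. Those 159 bases are shown because both genes that define these cells start at its ends; they come from RefSeq (GRCm38.p6), chr2:122298741-122298899, plus strand. Capitals mark TATAAA, which begins 30 bases before the RefSeq start of Duoxa2.

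Duoxa2 upstream: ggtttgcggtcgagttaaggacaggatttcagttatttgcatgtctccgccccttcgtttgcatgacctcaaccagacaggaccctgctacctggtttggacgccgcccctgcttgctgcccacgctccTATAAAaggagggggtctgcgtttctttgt

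Of 32851 RefSeq promoters, 7.95% held TATAAA on either strand in a window of this length. None of TTCNNNGAA (the STAT element, in 4.33% of promoter windows of this length), GAAANNGAAA (the core of the interferon-stimulated response element, 1.71%), TGANTCA (the AP-1 element, 4.505%) or the NF-kB site (4.92%) was found on either strand of the 159 bases; that says only that these letters are not in this window. Saa1 (chromosome 7, 46740497 to 46742980, minus strand) and Nos2 (chromosome 11, 78920787 to 78960254, plus strand) lie elsewhere.

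The values that chose the cells are given as description, with no test. The last cell inside the limit had 8 Duox2 and Duoxa2 UMIs of 8266, or 9.678 per 10000, and the first outside had 7 of 7245, or 9.662 per 10000. The cells held a median of 14 such UMIs (1 to 103) and 16.8 per 10000 (up to 78.6), and 29 cells, 28 of them WT, passed with fewer than 3. Both genes were detected in 869 cells (87.9%). Among the other enterocytes 39.5% had at least 1 UMI of either gene, so the limit cuts a range and does not separate a cell type. The summed cells of each mouse stood at 930.3 to 1279.8 CPM (median 1135) for Duox2 against 41.3 to 84.7 CPM (median 68.2) in the other enterocytes. CPM are UMIs per 1000000 of a mouse's summed cells after TMM scaling, a correction for differences in composition. Duoxa2 stood at 643 to 1019 CPM (median 858) against 18.4 to 52.2 CPM (median 24.1).

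The 2 further markers given for these cells, Saa1 and Nos2, were also high and are likewise described without a test. Nos2 stood at 362, 351 and 395 CPM in the Duox2-high cells of WT mice 1 to 3 and at 58.6, 97.9 and 147 CPM in KO mice 1 to 3, against 24.0, 25.9 and 63.5 and 8.39, 2.27 and 19.4 CPM in the other enterocytes of the same mice. All 6 mice had more Nos2 in their Duox2-high cells, although KO mouse 1 in that state lay below WT mouse 3 in the other. Saa1 stood at 1094, 356 and 963 CPM in WT and 365, 841 and 956 CPM in KO mice, against 140.2, 35.2 and 197 and 169, 45.8 and 135 CPM, with no overlap between the states. Within the Duox2-high cells these markers were uneven: 245 cells had both, 152 only Nos2, 270 only Saa1 and 322 neither. The 10% of cells with the most Saa1 UMIs held 66.9% of all Saa1 UMIs, and the 10% with the most Nos2 UMIs held 65.5% of all Nos2 UMIs. After each cell was thinned to 2000 UMIs, leaving out shallower cells (40 Duox2-high and 289 others), Nos2 was seen in 22.6% of 949 Duox2-high cells and 4.88% of 5310 other enterocytes, and Saa1 in 36.9% and 11.0%. The unthinned shares of the same cells were 40.9% and 11.2% for Nos2 and 53.4% and 22.6% for Saa1. In 134 Paneth cells (at least 10% of UMIs from defensins and Lyz1), which gauge free RNA, the thinned shares were 2.99% and 4.48%, at median depths of 7796, 8700 and 32850.5 UMIs in Duox2-high cells, other enterocytes and Paneth cells.

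The libraries held 102915321 (WT) and 110960113 (KO) gene UMIs, and 28 barcodes occurred in both, 5 of them in Duox2-high cells. The Duox2-high cells of a mouse summed to between 543451 and 1218717 UMIs, and the other enterocytes to between 5202897 and 9784773. Duox2-high cells had a median of 7569 UMIs and 10.7% mitochondrial UMIs, against 8335 UMIs and 15.9% in the other enterocytes. No Duox2-high cell passed 35851 UMIs, while 268 other enterocytes held more than 40000. Markers of other cell types were summed as CPM. All 9 lymphocyte and all 4 erythroid markers were at 0 in the Duox2-high cells, and the 9 neutrophil and myeloid markers summed to 1.98 to 32.3 with Csf1r, Csf3r, Cxcr2, Ly6g and Lyz2 at 0. The 9 goblet markers summed to 2134 to 2709.9 in Duox2-high cells and 1429 to 2150.0 in the others. The Duox2-high sum was the higher in all 6 mice, and 5 of these markers were capped by the rule in both groups. The 7 tuft markers summed to 12.5 to 31.6 and 6.03 to 98.6, and the 6 stem markers to 14.4 to 40.0 and 22.2 to 52.6. The 12 enterocyte markers, 5 of them in the rule, summed to 70118 to 93319 and 73502 to 104665.

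The first question was whether the receptor altered how many enterocytes were Duox2-high. They made up 11.7%, 21.7% and 14.7% of the enterocytes of WT mice 1 to 3, with exact Clopper-Pearson 95% intervals of 9.26 to 14.5%, 18.3 to 25.5% and 12.4 to 17.2%. In KO mice 1 to 3 they made up 14.3%, 17.3% and 14.6% (11.95 to 16.8%, 14.2 to 20.8% and 11.98 to 17.7%); intervals here cover counting error only. The 2 genotypes overlapped, WT mouse 2 being the highest and WT mouse 1 the lowest of the 6. The means were 16.1 ± 5.15% (SD, n = 3) in WT and 15.4 ± 1.66% (SD, n = 3) in KO, a difference of −0.649 percentage points (2-sided exact permutation test, p = 0.8, with 0.1 the smallest p that 3 against 3 mice allow). Without WT mouse 2 the difference was 2.196 points in the other direction (exact permutation p = 0.5). Over all enterocytes of a mouse, Duox2 stood at 193 ± 16.8 per 1000000 UMIs in WT and 166 ± 39.3 in KO (SD, n = 3; exact permutation p = 0.4), and Duoxa2 at 140.4 ± 36.7 and 92.6 ± 5.26 (exact permutation p = 0.1, the smallest possible).

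**Figure D1:**
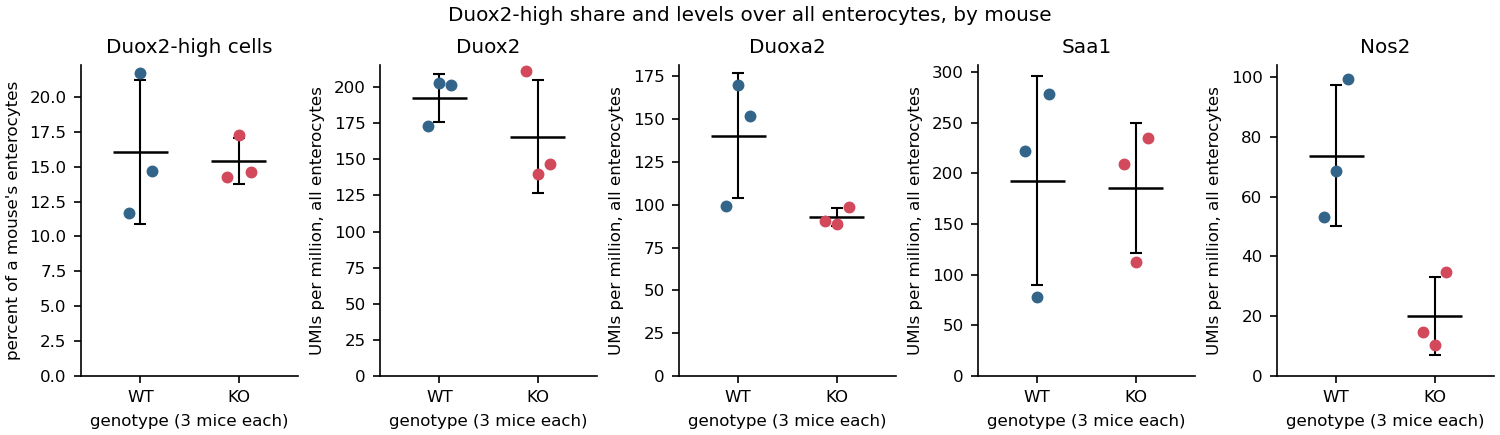
Share of enterocytes that were Duox2-high (percent) in each of the 6 mice, and levels of Duox2, Duoxa2, Nos2 and Saa1 over all enterocytes of each mouse. Levels are UMIs scaled to the total UMIs of those cells. Each dot is a mouse, with the mean and SD of each genotype. The shares of the 2 genotypes overlap (11.7 to 21.7% in WT, 14.3 to 17.3% in KO), and Nos2 over all enterocytes is lower in every KO mouse than in every WT mouse.

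The next comparison asked what else distinguished Duox2-high cells from the other enterocytes of the same mouse. The cells were split by 2 genes measured in the same cells, so the test describes which other genes vary together with Duox2 and Duoxa2. With the mouse as a block, 1975 of 8353 tested genes (23.6%) were higher and 2336 (28%) lower (edgeR quasi-likelihood test, Benjamini-Hochberg adjusted p under 0.05). The 13 genes of the rule, Saa1 and Nos2 were not counted. As 51.6% of all tested genes passed in one direction or the other, a single call carries little weight, and sizes and the share of a list are given beside these background shares. With no scaling beyond library size the split was 1552 higher and 2729 lower. The median log2 fold change of all tested genes was −0.08.

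NF-kB is the transcription factor family that answers tumour necrosis factor and microbial products, and its feedback inhibitors are among its own targets. All 12 tested members of the 17 listed NF-kB feedback and target genes were higher, against 23.6% of all genes, with a median log2 fold change of 0.90. Nfkbia, which encodes the inhibitor IκBα, stood at 186 to 621 CPM (median 421) in Duox2-high cells and 73.5 to 287 CPM (median 156) in the others. It was higher in all 6 mice, as 21.3% of all tested genes were, though the ranges of the 2 states overlapped and KO mice were low in both; the log2 fold change was 1.22 (SE 0.13, edgeR adjusted p = 3.85e-05). Tnfaip3, the ubiquitin-editing brake A20, stood at 35.0 to 111 CPM (median 63.3) against 10.3 to 39.2 CPM (median 22.6) (log2 fold change 1.49, SE 0.16). Zc3h12a, an RNase that degrades inflammatory mRNAs, differed by 0.98 on the log2 scale. Of the 11 tested genes of the IL-22, IL-17 and STAT3 response, 5 were higher and 1 lower (median 0.46). Socs3, the STAT3 feedback inhibitor, was higher in all 6 mice (log2 fold change 0.87, SE 0.17), as was Stat3 itself (0.46, SE 0.12). The Stat3 call was lost without the filter on low counts (edgeR adjusted p = 0.0534) and after thinning each cell to 2000 UMIs (log2 fold change 0.17, edgeR adjusted p = 0.376).

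Secreted defence molecules did not share this direction. In the acute phase and antimicrobial list, without Saa1 and Nos2, 0 of 8 tested genes were higher and 4 were lower (median −1.85). Reg3b, a secreted antibacterial lectin, stood at 2508 to 12719 CPM (median 6962) in Duox2-high cells and 9060.1 to 42487 CPM (median 19608) in other enterocytes and was lower in all 6 mice, as 24.9% of all tested genes were, though the ranges overlapped (log2 fold change −1.58, SE 0.30, edgeR adjusted p = 0.00132). Against other enterocytes no deeper than the deepest Duox2-high cell, the Reg3b difference shrank to −0.66. Its relative Reg3g did not pass the test (log2 fold change −1.09, edgeR adjusted p = 0.151). Pigr, the receptor that carries IgA across the epithelium, was lower, with a log2 fold change of −2.44 (SE 0.40), and of −1.56 against enterocytes of limited depth. Of the 6 tested chemokine and cytokine genes, Cxcl16 was higher at 142 to 199.98 CPM (median 157) against 55.1 to 116 CPM (median 93.6) (log2 fold change 0.94), while Il18 (−3.35) and the T-cell chemokine Ccl25 (−2.56) were lower. The label calls these cells inflammatory. Its own 4 markers cannot bear on that name, as Duox2 and Duoxa2 chose the cells and Saa1 and Nos2 were given with the label. The NF-kB list was higher, and the acute phase list was not.

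Antioxidant genes, among them enzymes that remove hydrogen peroxide, the product of DUOX2, were mostly low. Of 16 tested antioxidant genes 12 were lower and 3 higher (median −1.22), against 28% and 23.6% of all genes. Prdx1, a peroxiredoxin, stood at 31.6 to 137 CPM (median 85.6) in Duox2-high cells and 238 to 1799.8 CPM (median 581) in the others, with no overlap (log2 fold change −3.02, SE 0.25; −2.00 against enterocytes of limited depth). Txn1, thioredoxin, stood at 204 to 401 CPM (median 317) against 833 to 2004 CPM (median 1198) (−2.05 on the log2 scale, SE 0.14; −1.45 at limited depth). Gpx1, a glutathione peroxidase, was lower (log2 fold change −2.98, SE 0.59), a call that was lost at limited depth (−0.51, edgeR adjusted p = 0.0506). The 3 higher genes were Gclc, the rate-limiting enzyme of glutathione synthesis, at 63.5 to 195 CPM (median 97.6) against 35.4 to 124 CPM (median 41.2) (0.92), Srxn1, which repairs peroxiredoxins (0.54), and Txnrd1, thioredoxin reductase (0.42). The last of these was not called without WT mouse 1, 2 or 3 (edgeR adjusted p = 0.0622, 0.0645 and 0.09) and the Srxn1 call was lost after thinning (edgeR adjusted p = 0.257). Of the other oxidase and nitric oxide genes, 4 were tested. Noxo1, an organizer of the oxidase NOX1, was higher (0.80, SE 0.20; edgeR adjusted p = 0.223 after thinning), and Arg2, an arginase that competes with nitric oxide synthases for arginine, was lower (−3.35; −1.99 at limited depth).

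Genes of the villus tip were high and genes of the villus base and middle were mixed or low. Of 16 villus top genes 10 were higher and 0 lower (median 0.67). Nt5e, the adenosine-producing ectoenzyme CD73, stood at 1579.8 to 3101 CPM (median 2062) against 283 to 1202 CPM (median 695), without overlap (log2 fold change 1.70, SE 0.20, edgeR adjusted p = 6.12e-05). Egfr, the epidermal growth factor receptor, stood at 682 to 1546 CPM (median 1151) against 208 to 709 CPM (median 297) (1.58, SE 0.17), and Ada, adenosine deaminase, differed by 1.04. In the villus bottom list 6 of 11 were lower and 2 higher (median −1.58), and in the mid villus list 8 of 18 were lower and 4 higher (median −0.32). Sis, sucrase-isomaltase, the brush border enzyme that splits sucrose, stood at 7.91 to 41.0 CPM (median 17.5) against 88.6 to 1141 CPM (median 298), a log2 fold change of −4.10 (SE 0.25; −2.95 at limited depth). The metalloprotease subunit gene Mep1a (1.30) and the peptide transporter gene Slc15a1 (0.64) went the other way. In the lipid absorption list 3 of 18 were higher and 7 lower (median −0.15), with the lipoprotein gene Apoc2 at 1089 to 2440.2 CPM (median 1842) against 2515 to 5399.9 CPM (median 4327) (−1.19) and the fatty acid activating enzyme Acsl5 at 154 to 239 CPM (median 193) against 548 to 657 CPM (median 609) (−1.65). Neither gene overlapped between the states.

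Genes of the cell surface coat were high: 10 of 11 tested genes for surface mucins and glycosylation were higher and 1 lower (median 0.78). Fut2, the fucosyltransferase that decorates surface glycans, stood at 133 to 424 CPM (median 193) against 13.0 to 139 CPM (median 33.9) (2.31, SE 0.24), and the membrane mucin Muc13 at 7219.9 to 10273 CPM (median 8168) against 2682 to 5690.0 CPM (median 4139) (1.01). Muc4, another membrane mucin, was among the genes with the largest difference (2.36, SE 0.18). Of 11 tested regenerative and injury genes 6 were higher and 1 lower (median 1.15). Clu, clusterin, a marker of revival cells after radiation injury, stood at 183 to 831 CPM (median 506) against 27.4 to 206 CPM (median 90.6) (2.39, SE 0.19), Ly6d at 19.5 to 601 CPM (median 206) against 5.24 to 95.7 CPM (median 22.7) (3.07), and Plaur, the urokinase receptor, differed by 2.76. The growth factor gene Areg was lower (−2.14, SE 0.24). The Clu and Ly6d differences held in 6 of 6 mice.

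Stress, death and metabolic lists were more divided. Of 17 tested hypoxia and glycolysis genes 8 were higher and 2 lower (median 0.67), led by the glucose-trapping hexokinase Hk2 at 55.8 to 267 CPM (median 161) against 10.4 to 55.8 CPM (median 26.9) (2.403, SE 0.14), the vasoactive peptide gene Adm (2.12), the glycolysis activator Pfkfb3 (1.30) and Vegfa (0.997). The Vegfa difference fell to 0.37 after thinning. Of 19 pyroptosis and necroptosis genes 9 were higher and 7 lower (median 0.23). Casp4, the caspase that senses cytosolic lipopolysaccharide, stood at 167 to 267 CPM (median 200.2) against 40.8 to 99.9 CPM (median 69.2) (1.63, SE 0.15), and the sensor of bacterial secretion needles Naip1 at 294 to 459.8 CPM (median 340.3) against 124 to 156 CPM (median 143) (1.30); neither overlapped. The necroptosis kinase Ripk3 (1.03) and the inflammasome sensor Nlrp9b (1.01) were higher too. Nlrp6 (−3.24), the adaptor Pycard (−2.66) and the cytokine Il18 were lower, and Pycard was not called at limited depth (−0.49, edgeR adjusted p = 0.104). Of 36 interferon-stimulated genes 11 were higher and 8 lower (median 0.12), among them Slfn4 (1.56), Oasl1 (1.14) and, in the other direction, Ifi27l2b (−1.22). The antigen presentation list had 2 of 16 higher and 6 lower (median −0.17), the p53 list 4 of 15 and 5, the unfolded protein response list 4 of 17 and 5, the metallothionein and zinc list 0 of 7 and 4, and 0 of 4 tested proliferation genes were called.

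**Figure D2:**
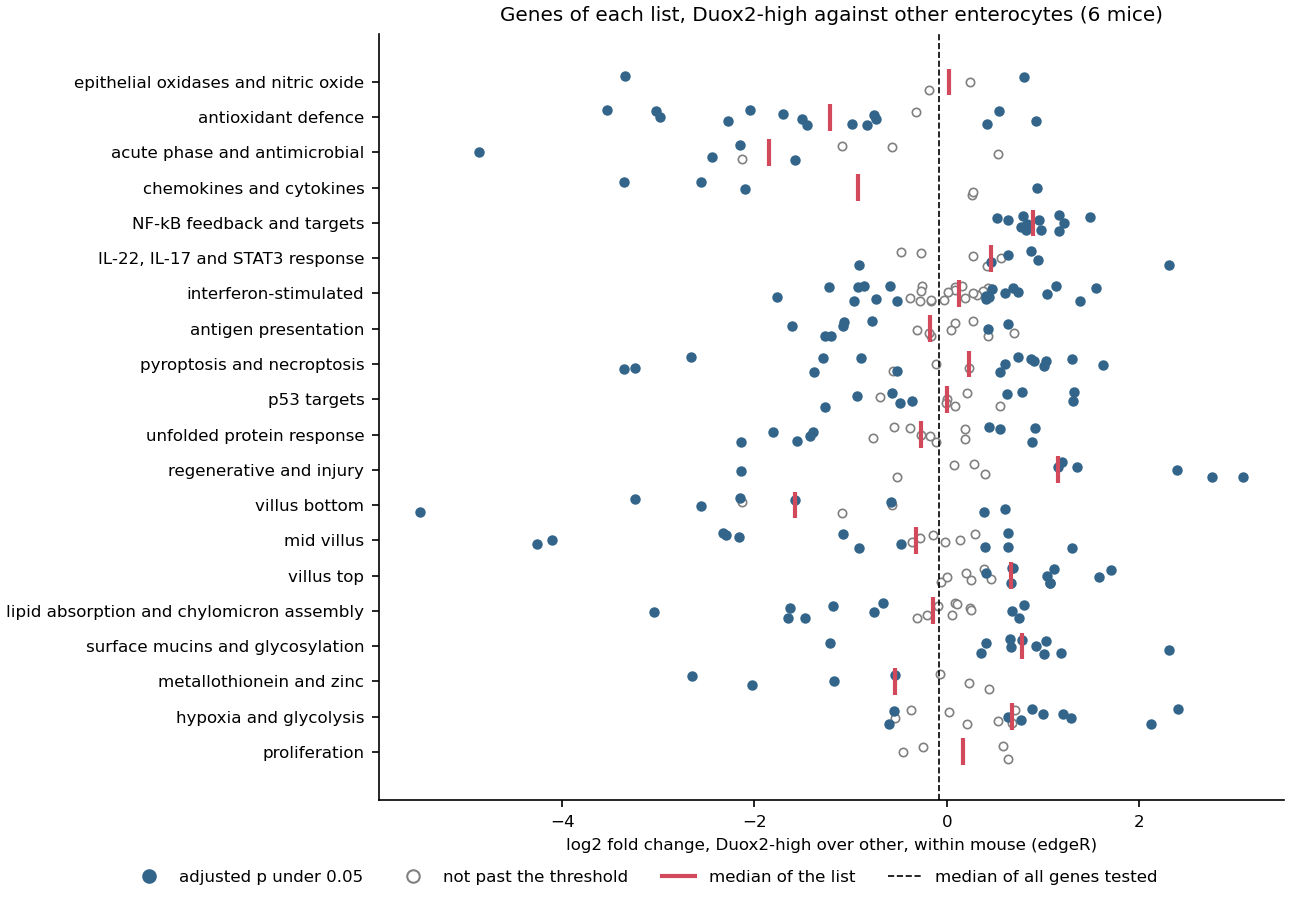
Log2 fold change, Duox2-high against other enterocytes, of every tested gene of each list; each dot is a gene, filled where the edgeR adjusted p is under 0.05, with the list median as a red tick and the median of all tested genes (−0.08) as a dashed line. All 12 NF-kB genes lie to the right of 0 and 12 of 16 antioxidant genes are filled on the left.

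The genes with the largest differences were named by a rule, whether in a list or not: a call in the test, the same direction in 6 of 6 mice and at least 50 CPM in the higher state. On the high side they were led by Slc6a14, an amino acid transporter of broad specificity, at 11.8 to 136 CPM (median 22.3) against 0.476 to 9.77 CPM (median 5.09) (log2 fold change 3.19, SE 0.35). WT mice 1 and 3 carried most of it, at 136 and 129 CPM, against 29.8 CPM or less in the other 4 mice. Prss8, the channel-activating protease prostasin, stood at 35.0 to 115 CPM (median 49.2) against 4.16 to 13.0 CPM (median 6.96) (2.99, SE 0.16). Marcksl1, an actin-binding protein, stood at 346 to 1056 CPM (median 509.5) against 50.1 to 112 CPM (median 70.7) (2.89, SE 0.18). Neither Prss8 nor Marcksl1 overlapped between the states. Marcksl1 is also used as a marker of M cells, and with it the M cell list summed to 349.5 to 1056 CPM, against 58.4 to 117. Marcksl1 made nearly all of this sum in the Duox2-high cells, with a mean of 567 CPM against 569 for the list. The M cell genes Spib and Ccl9 were at 0 in the Duox2-high cells. The GTPase gene Rnd3 (2.44), Ppp1r15a, which restarts translation after stress (2.28), the phospholipase gene Plb1 (2.28), Cyp4a29 (2.29) and Mreg (2.25) followed. On the low side, the glutathione transferase genes Gstm3 (−6.46), Gsta1 (−5.48) and Gstp1 (−4.48) and the deacetylase gene Aadac (−4.89) had the largest differences. Gstm3 was at 0 in some Duox2-high sums, so the size of its fold rests on the fit. Reg1 (−4.86), the calcium-binding protein gene S100g (−4.70), the chloride exchanger gene Slc26a3 (−4.66), the fatty acid oxidation gene Acaa2 (−4.40), the basolateral glucose transporter gene Slc2a2 (−4.26) and Tmprss15, the enteropeptidase that activates trypsinogen (−4.19), were also lower. Tmprss15 stood at 1.08 to 20.5 CPM (median 7.93) in Duox2-high cells and 64.1 to 238 CPM (median 164) in the others. At limited depth of the other enterocytes Gstm3 and Aadac did not pass the filter on low counts and the other low-side genes were still called. Tmprss15 stood at −4.33 and Slc2a2 at −3.66, and the differences were −2.18 for Gsta1, −2.55 for Gstp1, −2.91 for Reg1, −2.76 for Slc26a3, −1.78 for Acaa2 and −3.82 for S100g. Without KO mouse 2 the values of Gsta1 and Acaa2 were −4.67 and −3.38, and without WT mouse 2 that of Aadac was −4.29.

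Levels were then followed along the whole ranking by Duox2 and Duoxa2, in the top 5% of enterocytes, the next bins to 15%, 30% and 50%, and the lower 50%, as UMIs per 1000000 (mean ± SD over 6 mice, no test). Nos2 fell along the bins, from 378 ± 270.3 to 159 ± 101, 86.8 ± 67.9, 27.0 ± 20.8 and 9.63 ± 8.40, at every step in 5 of 6 mice. Saa1 stood at 1200.0 ± 668, 542 ± 307, 369 ± 199.9, 194 ± 153 and 45.2 ± 25.01, falling at every step in 4 mice. These 2 genes continued to differ inside the Duox2-high group, between the top 5% and the 10% below it. Hk2 (179 ± 88.1, 129 ± 78.6, 78.5 ± 58.9, 37.9 ± 18.8 and 15.9 ± 11.0) and Nfkbia (432 ± 249 in the first bin and 162 ± 68.5 in the last) fell at every step in 4 mice. For Nfkbia and for other genes the largest step of the mean over mice lay between the third and the fourth bin, outside the Duox2-high group. Single mice differed: the largest step was there in 5 of 6 mice for Sis, 4 for Prdx1, 4 for Egfr, 4 for Clu and 4 for Nfkbia. The median depth also rose at that step, from 8002 ± 664 to 11816 ± 2947 UMIs per cell, and its part was not tested. Sis stood at 20.2 ± 11.1, 21.997 ± 16.3 and 57.8 ± 33.9 in the first 3 bins and at 525 ± 554 and 501 ± 426 in the last 2. Prdx1 stood at 76.1 ± 44.7, 82.2 ± 40.5 and 170.5 ± 112 and then at 968 ± 814 and 816 ± 607, and Egfr went the other way, from 807 ± 216 in the third bin to 387 ± 264 in the fourth. Clu followed the same step, at 378 ± 239 and 118 ± 74.2. In Sis, Prdx1, Egfr and Clu the mean of the cells ranked between 15% and 30% lay nearer to the bins above it than to those below. Isg15 was higher in the first bin than in the last in 5 of 6 mice. It stood at 437 ± 184 and 439 ± 134 in WT and at 234 ± 149 and 82.3 ± 23.5 in KO mice (SD, n = 3). The median mitochondrial share rose along the bins from 8.80 ± 2.01 to 16.7 ± 1.43%, at every step in 5 mice, and its part in these levels was not tested; with a mitochondrial limit of 15% the comparison of states called 1597 genes higher and 2059 lower.

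Because villus top genes were high, the Duox2-high cells were also set against 840 other enterocytes, the top 15% of these cells by a villus top score, a comparison chosen after the data had been seen. Of the 989 Duox2-high cells, 220 (22.2%) were in the top 15% when all enterocytes were ranked together by that score. Against the 840 tip-high cells 513 of 5473 genes (9.37%) were higher and 496 (9.06%) lower. The NF-kB list had 6 of 11 higher and 0 lower, and the surface coat list 6 of 11 higher and 0 lower. Both tested oxidase genes were higher, Noxo1 by 1.41 and Cyba, the shared small oxidase subunit, by 1.21 on the log2 scale. Genes of the acute phase list now stood on the high side, with 4 of 7 higher and 1 lower: Reg3b by 1.31 (SE 0.21), Reg3g by 1.86, Reg3a by 1.56 and Pigr by 0.49 on the log2 scale, with Reg1 at −1.08. The direction for Reg3b and Pigr was thus opposite to that against all other enterocytes. Of 15 antioxidant genes 2 were higher and 4 lower. Gpx2, the epithelial glutathione peroxidase, was higher by 1.06, and Prdx1 was lower, at −0.46. The regenerative and injury list was divided here, with 3 of 9 tested genes higher and 3 lower (median −0.33). In the lipid list 0 of 17 were higher and 11 lower, but its genes Apob and Creb3l3 are also in the score that chose the 840 cells. Slc6a14 (2.76), Ly6d (2.32), Plb1 (2.10), Prss8 (1.90), Fut2 (1.5003), Hk2 (1.30) and Casp4 (0.94) were higher in this comparison as well (edgeR adjusted p of 4.66e-07 for Casp4, and between 1.87e-11 and 3.42e-06 for the others). Nos2 differed by 3.74 and Saa1 by 1.90, given without a test.

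The last question was how Duox2-high cells of KO mice differed from those of WT mice. In summed Duox2-high cells 54 of 5668 genes (0.953%) were higher and 115 (2.03%) lower in KO mice (edgeR quasi-likelihood test, adjusted p under 0.05, 3 mice against 3). With no scaling beyond library size the split was 72 higher and 80 lower. Leaving out 1 mouse gave between 72 genes (without WT mouse 3) and 220 (without KO mouse 3), with 101 without WT mouse 1, 85 without KO mouse 1 and 94 without KO mouse 2. Nothing in the labels says whether the mice of a genotype were littermates, and the p-values measure the spread among these mice within 2 pools. Ifnlr1 itself stood at 61.3, 52.1 and 50.8 CPM in WT and 52.5, 29.6 and 38.7 CPM in KO mice (log2 fold change −0.40, edgeR adjusted p = 0.461). The deleted exons are not given in the sources used here and 3′ tags need not cover them, so this checks nothing.

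Interferon-stimulated genes were the list with the most calls. Of 33 tested, 18 were lower in KO and 0 higher, against 2.03% of all genes (median log2 fold change −1.41, against 0.00 over all tested genes), and in 23 every KO mouse lay under every WT mouse, a pattern seen in 10.8% of all genes. Isg15, a ubiquitin-like modifier, stood at 421, 427 and 571 CPM in WT mice 1 to 3 and 269.5, 115 and 146 CPM in KO mice 1 to 3, with no overlap (log2 fold change −1.41, SE 0.24, edgeR adjusted p = 0.00419). Rsad2, the antiviral enzyme viperin, stood at 51.4, 43.7 and 48.0 and 15.4, 9.11 and 4.302 CPM (−2.26, SE 0.34, edgeR adjusted p = 0.00141). Rnf213, a giant ubiquitin ligase, stood at 109, 193 and 167 and 32.9, 43.3 and 23.7 CPM (−2.25), and the helicase gene Ddx60 at 85.1, 144 and 147 and 32.9, 26.2 and 8.603 CPM (−2.49). None of these genes overlapped between the genotypes. Irf9, the DNA-binding subunit of the interferon-activated complex, was lower with a log2 fold change of −1.71 (SE 0.28), as were Rtp4 (−2.90), Lgals3bp (−2.00), Trim30a (−3.75) and Slfn4 (−1.53). Ifit1, which binds foreign 5′ RNA ends and blocks their translation, stood at 69.2, 99.5 and 127 and 54.5, 22.8 and 19.4 CPM (−1.62, edgeR adjusted p = 0.00985), a call lost without WT mouse 3 (edgeR adjusted p = 0.0692) or KO mouse 2 (edgeR adjusted p = 0.0657). Not all listed genes differed: Ifit1bl1 stood at 71.2, 246 and 190.3 and 288, 200.3 and 138 CPM (0.26, SE 0.31), Samd9l at 255, 291 and 299 and 339, 351 and 238 CPM (0.14) and Oasl1 at 504, 527 and 524 and 426, 438 and 329 CPM (−0.37), with edgeR adjusted p of 0.753, 0.754 and 0.199.

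The sequence before Isg15 is shown because it is the textbook interferon-responsive promoter and the gene was lower in the Duox2-high cells of KO mice. It comes from RefSeq (GRCm38.p6), chr4:156200819-156201068, minus strand, and ends at the base before the start of the gene (chromosome 4, 156199424 to 156200818). Capitals mark 3 overlapping matches to GAAANNGAAA, the core of the interferon-stimulated response element, which begin 78, 72 and 66 bases before the start.

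Isg15 upstream: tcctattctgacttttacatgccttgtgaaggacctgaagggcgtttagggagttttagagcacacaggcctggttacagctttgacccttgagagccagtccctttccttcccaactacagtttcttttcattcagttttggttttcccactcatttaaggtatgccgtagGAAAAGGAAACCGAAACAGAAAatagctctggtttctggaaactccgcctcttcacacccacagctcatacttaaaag

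Of 32851 RefSeq promoters, 2.98% held GAAANNGAAA on either strand in a window of 250 bases. A match is a description of the letters and not a measured binding site.

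Some antigen presentation genes were lower as well. Of 15 tested 5 were lower and 0 higher (median −0.56), and 10 did not overlap between the genotypes, as was so for 19.6% of all tested genes in either direction. Cd74, the invariant chain that escorts MHC class II molecules, stood at 186, 272 and 454 CPM in WT mice and 11.3, 2.28 and 9.68 CPM in KO mice (log2 fold change −5.25, SE 0.39, edgeR adjusted p = 1.72e-06). Every KO mouse was far under every WT mouse, and the same held for the class II chains H2-Aa, at 43.5, 41.9 and 64.7 and 1.03, 3.41 and 2.15 CPM (−4.46, SE 0.42), and H2-Ab1, at 65.3, 113 and 181 and 17.5, 4.55 and 15.1 CPM (−3.28, SE 0.39). After thinning to 2000 UMIs, at least 1 Cd74 UMI occurred in 33.0% of the 512 WT Duox2-high cells and 0.915% of the 437 KO ones (57.4% and 4.58% without thinning), and in 21.6% of the Paneth cells of both libraries. The remaining 2 calls were the peptide transporter gene Tap1 (−1.87) and the class I light chain gene B2m (−0.66). Tap1 was not called without WT mouse 3 or KO mouse 2 (edgeR adjusted p = 0.0854 and 0.051), nor B2m without WT mouse 3, KO mouse 1 or KO mouse 2 (edgeR adjusted p = 0.0606, 0.0784 and 0.0786). The 9 neutrophil and myeloid markers summed to 1.98 to 32.3 CPM in WT and 4.55 to 6.45 in KO Duox2-high cells, with 5 of them at 0 as given above and Cd14 present in every mouse. The immunoglobulin light chain Igkc, which is in no list and was chosen after its values were seen, stood at 13.8, 3.72 and 6.47 CPM in WT and was at 0 in all 3 KO mice. The part of immune cell RNA in the Cd74, H2-Aa and H2-Ab1 differences was not tested.

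Of the 2 further markers given for these cells, Nos2 was called between genotypes and Saa1 was not. Nos2, with the values given above, was lower in KO, with no overlap (log2 fold change −1.86, SE 0.24, edgeR adjusted p = 0.00035), and after thinning the share of cells with a UMI of it was 31.4% in WT and 12.1% in KO. Saa1 overlapped fully (−0.14, SE 0.34, edgeR adjusted p = 0.905), and WT mouse 2 and KO mouse 1 were the lowest of their groups. Duox2 stood at 1149, 1121 and 1117 and 1279.8, 1225 and 930.3 CPM and Duoxa2 at 849, 1019 and 926 and 643, 867 and 741 CPM in cells chosen for these genes. Of 11 tested NF-kB genes 4 were lower in KO and 0 higher (median −0.42), against 2.03% and 0.953% of all genes. Nfkbia stood at 621, 519.9 and 611 and 186, 200.3 and 322 CPM, with no overlap (−1.29, SE 0.19, edgeR adjusted p = 0.00135). The calls of Tnfaip3 (−0.96), Nfkb1 (−0.77) and Zc3h12a (−1.31) were each lost when 1 of several mice was left out: Tnfaip3 and Nfkb1 without WT mouse 1 or 3 or KO mouse 1 or 2 (edgeR adjusted p up to 0.178 and 0.127) and Zc3h12a without WT mouse 2 or KO mouse 1 or 2 (up to 0.0945). Of 15 hypoxia and glycolysis genes 3 were lower and 0 higher, again against 2.03% and 0.953%. Hk2 stood at 206, 267 and 208 and 57.6, 55.8 and 117 CPM, again without overlap (−1.55, SE 0.24, edgeR adjusted p = 0.00216). The others were Hif1a (−0.76), not called without WT mouse 1 or 3 or KO mouse 1 or 2 (edgeR adjusted p up to 0.126), and Adm (−1.25), not called without WT mouse 1 or KO mouse 1 (edgeR adjusted p = 0.0715 and 0.0635).

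Some genes of epithelial function differed in the same direction. Egfr stood at 1410.3, 1422 and 1546 and 722, 892 and 682 CPM (−0.92, SE 0.14, edgeR adjusted p = 0.00128), and Slc5a1, the sodium-glucose cotransporter, at 716, 1086 and 982 and 410.5, 369.9 and 539.9 CPM (−1.07, SE 0.18, edgeR adjusted p = 0.00329). Tead1, a DNA-binding partner of YAP (−1.40), Qsox1, a secreted disulfide oxidase (−1.86), and the carboxypeptidase gene Cpe (−1.98) were lower too, by these log2 fold changes. None of these 5 genes overlapped between the genotypes, as was so for 19.6% of all tested genes in either direction. The rule that named Qsox1 and Cpe asked for this. Pigr stood at 55.4, 290.2 and 85.9 and 11.3, 25.04 and 24.7 CPM (−2.88, SE 0.51, edgeR adjusted p = 0.00502); WT mouse 2 was far above the other 2, and without it the difference was −1.82 (edgeR adjusted p = 0.00306). The regenerative genes Clu (831, 183 and 319.7 and 564, 595 and 448 CPM) and Ly6d (194, 132 and 601 and 19.5, 217 and 379.6 CPM) overlapped between the genotypes and were not called; without WT mouse 1 Clu was higher in KO by 1.11 (edgeR adjusted p = 0.0267). Of 16 tested pyroptosis and necroptosis genes 0 were higher and 1 lower, of 15 antioxidant genes 0 and 1, of 16 villus top genes 1 and 1, and of 11 surface coat genes 0 were called. The antioxidant call was Gclc, at 170.1, 114 and 195 and 76.1, 80.8 and 63.5 CPM (−1.10); without WT mouse 3 it was not called (edgeR adjusted p = 0.0595).

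Genes higher in KO were led by Mt1, a metal-binding stress protein, at 69.2, 93.9 and 53.6 CPM in WT and 668, 842 and 660.3 CPM in KO mice (log2 fold change 3.32, SE 0.20, edgeR adjusted p = 2.03e-07). After thinning, 10.2% of the WT and 60.2% of the KO cells had a UMI of Mt1, and 40.3% of Paneth cells. The Paneth cell defensin genes Defa30, at 51.4, 41.9 and 37.9 and 207, 200.3 and 173 CPM (2.19, SE 0.18), and Defa24, at 222, 220.4 and 211 and 533, 472 and 495 CPM (1.21, SE 0.14), were higher too, as was the incretin gene Gip at 1.98, 1.86 and 3.70 and 48.4, 29.6 and 29.0 CPM (3.71, SE 0.44). The 10 Paneth markers together summed to 369 to 415 CPM in WT and 825 to 963 in KO Duox2-high cells. The 10 enteroendocrine markers, Gip among them, summed to 59.5 to 94.9 and 79.7 to 127 CPM, so that sum overlapped between the genotypes. Defa30, Defa24 and Gip are products of other cell types, and the part of free RNA from those cells in these 3 genes was not tested. Defensin genes are near-identical copies, among which reads can be split. Slc17a5, the lysosomal sialic acid transporter, stood at 93.0, 51.2 and 71.1 and 358, 259.5 and 139 CPM (1.87, SE 0.29), Aoc1, a diamine oxidase, at 63.3, 78.1 and 58.2 and 122, 150.2 and 161 CPM (1.12) and the RNA-binding protein gene Zc3h13 at 69.2, 85.6 and 103 and 209.9, 139 and 193 CPM (1.06). The genotypes did not overlap in any of these genes. All but Gip were named by a rule that asked for this, and 19.6% of all tested genes did not overlap in either direction.

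**Figure D3:**
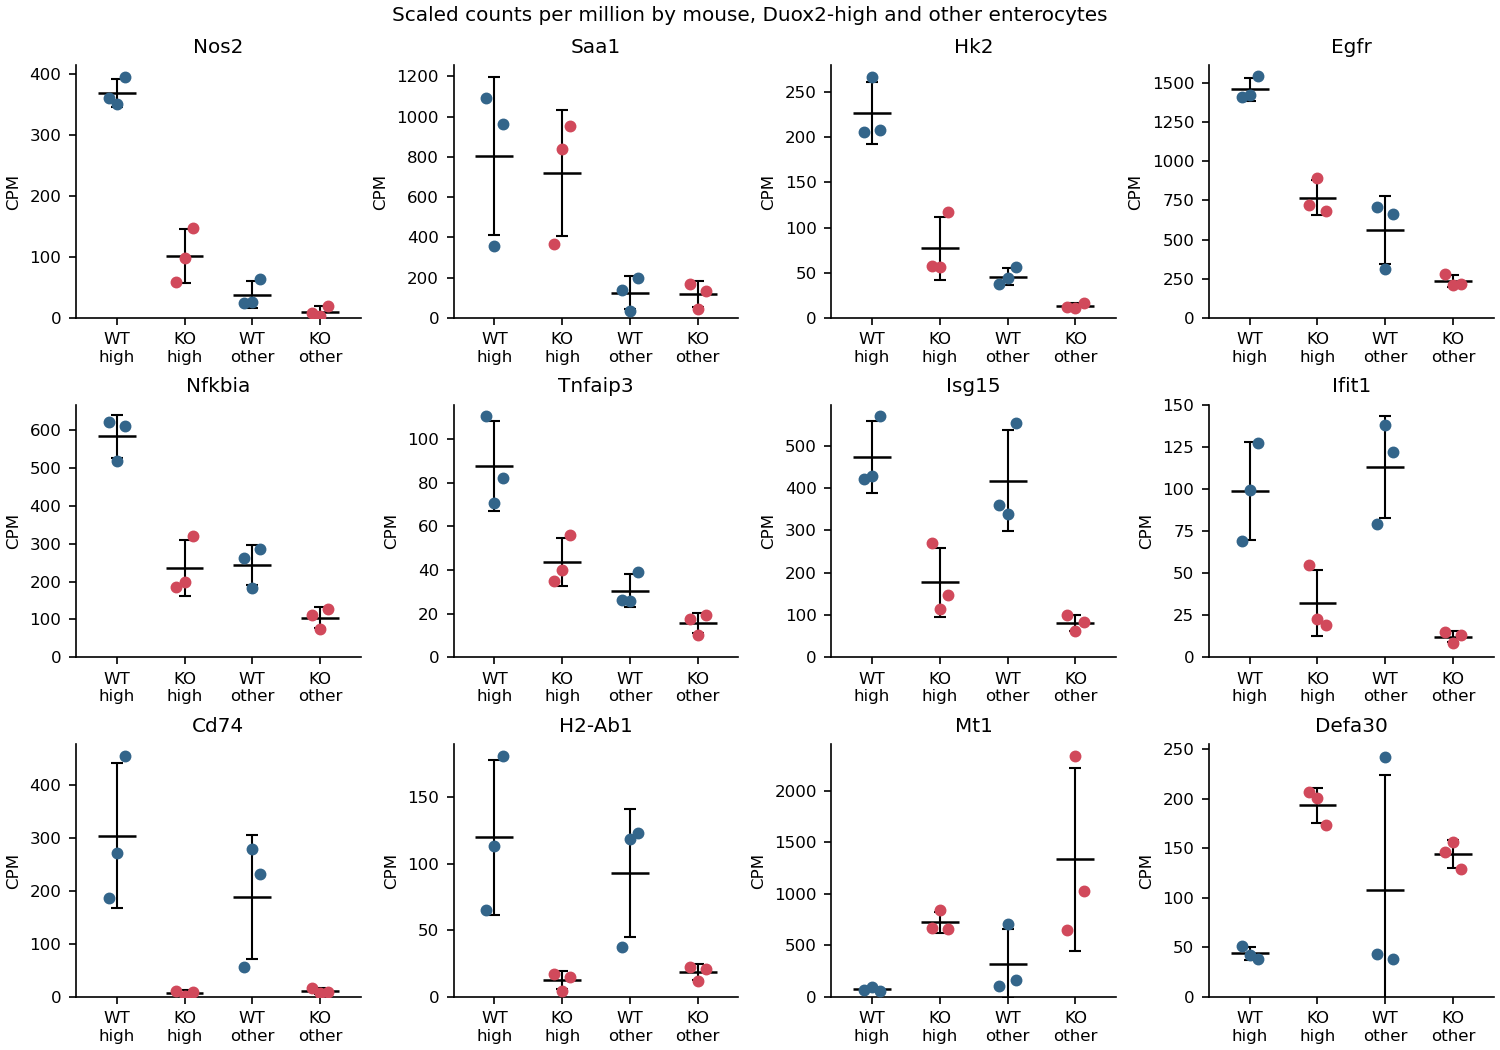
CPM of 12 genes, 1 per panel, in the Duox2-high and in the other enterocytes of 3 WT and 3 KO mice (4 columns); each dot is a mouse, the line is the mean and the bar the SD, cut at 0. In the Duox2-high columns Nos2, Isg15, Cd74, Hk2 and Egfr are lower in all 3 KO mice, Mt1 is higher in all 3, and Saa1 overlaps.

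The same genotype test was made in the other enterocytes, to see whether a difference belonged to the Duox2-high cells. Without a block, 1 of 10421 genes (0.0096%) passed, Rsad2, lower in KO (edgeR adjusted p = 0.0254). In these cells the deviations of mice with equal hashtag numbers correlated at 0.461 to 0.768, but those of WT mouse 3 with KO mouse 1 (0.582) and WT mouse 1 with KO mouse 3 (0.360) did too, so the mice with hashtag 2 stood apart from the others. With the number as a block 823 genes (7.9%) were higher and 625 (6%) lower. With the block 39 of 40 tested interferon-stimulated genes were lower (median −1.87) and 15 of 22 antigen presentation genes. The blocked log2 fold change in the other enterocytes was −2.39 for Isg15, −3.97 for Cd74, −2.14 for Nos2, −1.87 for Hk2, −1.28 for Nfkbia, −1.24 for Egfr and 2.31 for Mt1 (edgeR adjusted p between 0.00117 and 0.0134). All 7 thus had the direction seen in the Duox2-high cells.

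The interaction test asked directly whether the genotype difference depended on the state. It called 0 of 9337 genes in edgeR, and DESeq2 called 3. In edgeR 246 of all 9352 genes fitted, with the rule genes and given markers included, had an unadjusted p under 0.05. The smallest p-values among the listed genes belonged to Pigr, which differed by −2.88 in Duox2-high cells and −0.27 in the others (interaction −2.39, SE 0.35, edgeR adjusted p = 0.116), and Ifit1bl1, at 0.26 and −1.95 (interaction 2.24, SE 0.34, edgeR adjusted p = 0.116). For Rsad2 and Ifit1 the interaction was 1.85 and 1.54 on the log2 scale, the difference being smaller in Duox2-high cells, and neither passed (edgeR adjusted p = 1 for both). Leaving out both mice with hashtag 2, the interaction test called 63 genes, 36 with a positive and 27 with a negative term. Of 1870 genes that were higher in Duox2-high cells and tested between genotypes, 52 (2.78%) were lower in KO and 20 (1.07%) higher. Of 2573 genes not called between the states, 46 (1.79%) were lower and 25 (0.972%) higher.

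**Figure D4:**
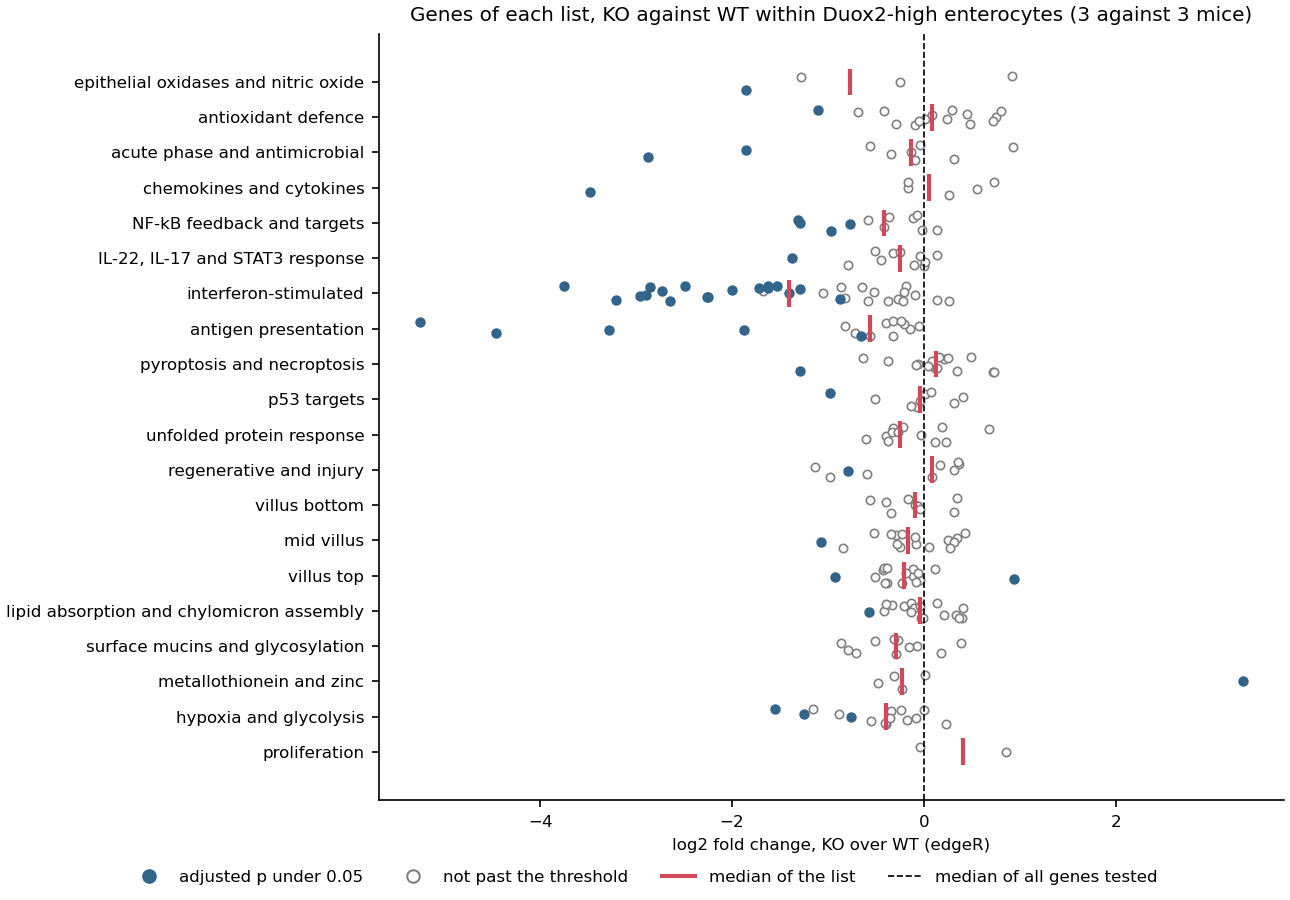
Log2 fold change, KO against WT in Duox2-high cells, of every tested gene of each list; each dot is a gene, filled where the edgeR adjusted p is under 0.05, with the list median as a red tick and the median of all tested genes (0.00) as a dashed line. The interferon-stimulated list has its median at −1.41 with 18 filled dots, all on the lower side.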

How the data were processed

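Small intestinal epithelial cells of 6 irradiated mice were profiled with 10x Genomics 3′ libraries, 1 of mRNA and 1 of hashtags per genotype pool. The deposited files hold raw UMI counts for 32285 genes and 3 hashtags per library, without normalization, in barcodes called as cells. Cell Ranger 7.0.1, Seurat 4.1.0 (role not stated) and the mm10 build are named per the submitters' processing notes. Whether intronic reads were counted is not given in the sources used here.

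Mice were assigned from hashtag counts with HTODemux (Seurat 5.3.0, quantile 0.99). Doublets of 1 mouse were not removed. The members, the 20 gene lists and the markers were chosen with earlier results of these data known. UMI counts were summed per mouse and state and tested with edgeR 4.0.16 (quasi-likelihood, TMM, filterByExpr) in R 4.3.3, Benjamini-Hochberg adjusted over all genes tested, at 0.05. DESeq2 1.42.0 was an alternative. The edgeR fits, but not DESeq2, were checked on simulated counts. Shares were compared by exact permutation (scipy 1.17.1). Genes were named by the rule given in the report (15 highest, 10 lowest; between genotypes, no overlap), plus any list gene; predicted genes were left out. Cyba was chosen as a list gene, and a few higher genes were left unnamed for length.

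Mice of equal hashtag number carry no stated pairing. With each genotype's mean taken out, the log CPM of such pairs correlated at 0.552, 0.768 and 0.461 in other enterocytes, all above 0.1 (unequal numbers: 0.582 for WT 3 with KO 1, 0.360 for WT 1 with KO 3, and −0.721 to −0.517 for the 4 pairs that held 1 mouse with hashtag 2), and at 0.0469, −0.0899 and −0.0364 in Duox2-high cells; the block is therefore given beside the results for other enterocytes. The alternatives were other limits of the rule, filters, scalings, tools, depths, comparison cells and left-out mice. No columns of other samples were present.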

Additional observations from a re-analysis of the deposited data

How the results depend on the processing

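The KO minus WT difference in the Duox2-high share was −0.649 percentage points and changed sign with other enterocytes up to the deepest member (0.0216), without WT replicate 2 (2.196) and without both mice with hashtag 2 (1.246). Leaving out 1 mouse gave −2.82 to 2.196, and the replicate block −0.649 (exact permutation p = 0.75).

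Between states 4311 of 8353 tested genes were called. The calls became 1009 of 5473 against villus top-high enterocytes, and 3516 to 4373 without 1 mouse. After thinning each cell 1500 were called, and 4635 genes were fitted. Against villus top-high enterocytes 15 named genes changed sign: Gpx1 0.029, Srxn1 −0.16, Reg3b 1.31, Reg3g 1.86, Pigr 0.49, Nt5e −0.51, Ada −0.40, Egfr −0.28, Sis 0.056, Mgam 0.73, Pycard 0.015, Oasl1 −0.040, Mt1 0.042, Gpx2 1.06 and Isg15 −0.013. The cells compared differ by construction.

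Within Duox2-high cells 169 of 5668 tested genes were called between genotypes. The calls became 110 of 4866 with the top 10%, and 93 of 4254 with a mitochondrial limit of 15%. They were 329 of 14881 with no filter on low counts, 83 of 2706 after thinning, and 72 to 220 without 1 mouse. The replicate block gave 170 (52 higher, 118 lower), and the pairs did not vary together in these cells. The cause of these shifts was not tested.

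In other enterocytes the 1 call became 5 with the top 10%, 0 with a mitochondrial limit of 15%, 14 with mice assigned by hashtag ratio, 0 in every fit without 1 mouse, 675 without both mice with hashtag 2, 64 in DESeq2, 28 with no filter, 31 after thinning, 205 up to the deepest member, 2 with no scaling beyond library size and 1448 with the replicate block. The interaction test, at 0 calls, gave 1 with the top 10%, 1 by hashtag ratio, 0 to 3 without 1 mouse, 63 without both mice with hashtag 2, 3 in DESeq2, 8 with no filter and 24 up to the deepest member.

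Genes with few UMIs in the smallest sum, of 543451 UMIs, and shares from 71 cells limit the precision. Calls without 1 mouse rest on 2 against 3 mice.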

Other observations

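Duox2-high cells that carried no hashtag, 210 of the WT library and 113 of the KO library, entered no comparison between mice. Their summed levels were 405 (WT) and 14.4 (KO) UMIs per 1000000 for Cd74, 60.9 and 3.32 for H2-Aa, 404.5 and 162 for Isg15, 293 and 88.5 for Nos2, and 54.1 and 658 for Mt1. Saa1 stood at 865 and 573. They are single values of a library with no spread. Their median depth was 5627.5 and 6644 UMIs, lower than the 8560 and 8248 UMIs of the cells assigned to 1 mouse.

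Among all 989 Duox2-high cells, Saa1 was seen in 61.7% of the cells with Nos2 (median 8520 UMIs) and in 45.6% of those without (median 7017 UMIs). In the WT library Nos2 was seen in 49.8% of these cells and in the KO library in 28.1%, while Saa1 was seen in 54.2% and 49.4%. These shares are at full depth and are not corrected for the difference in UMIs.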
